A study of Mus musculus with 3 samples.

Results

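Border-associated macrophages (BAM) in Cd11b-sorted cells of the mouse brain were selected on their own counts of unique molecular identifiers (UMIs). A cell was chosen by the rule that Mrc1, Pf4, Cbr2, Cd163 and Cd209f together made up at least 0.1% of its UMIs while the neutrophil genes S100a8, S100a9, Camp and Ngp stayed under 1%. Cells with fewer than 500 genes detected, or with more than 10% of their UMIs from mitochondrial genes, were left out. The rule found 61 of 2144 cells, 58 of them in library 1, 0 in library 2 and 3 in library 3.

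The series describes 3 groups of C57BL6J female mice aged 5 months, with 1 library each: Ctrl (naïve, 1 animal), D0 (PLX5622 diet at 1200 mg/kg for 14 days, 2 animals pooled) and D2 (2 days of control diet after the same 14 days, 1 animal). PLX5622 inhibits Csf1r, a receptor that microglia and many macrophages need to survive. The brain without the cerebellum was digested with collagenase and dispase at 37 C and sorted for Cd11b. The barcodes end in 1, 2 or 3, and nothing in the labels or files used here ties these numbers to Ctrl, D0 or D2. Cells are therefore grouped by number as library 1, 2 and 3, no group is compared with another, and there are no replicates and no p-values. All intervals are 95% intervals that cover counting error only.

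BAM are the resident macrophages of the brain's borders: the leptomeninges, the spaces around vessels, the choroid plexus and the dura. They share the surface of a tissue macrophage with microglia but carry scavenger and lectin receptors, such as the mannose receptor Mrc1 and the haemoglobin receptor Cd163, that microglia of the parenchyma lack. BAM of the leptomeninges and of vessels are commonly described as rich in Lyve1 and Folr2 and poor in MHC class II, and other BAM as the reverse.

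Among the genes that chose the cells, Cd209f is a C-type lectin receptor with a close neighbour, Cd209g, that the rule did not use. Cd209f lies on the minus strand of chromosome 8 (GRCm38, 4102787 to 4105835) and Cd209g on the plus strand at 4134098 to 4137707, 28.3 kb apart, both protein coding. Their promoters are shown because the 2 genes were detected in many of the same cells. Each sequence runs from 250 bases before to 50 after the RefSeq start (GRCm38.p6), 5′ to 3′ on the gene's strand, and the capitals mark the longest identical run, of 180 bases, which only these 2 of 32851 promoters in the table held. The RefSeq start of Cd209g lies 638 bases inside the GENCODE gene given above, and that of Cd209f 71 bases inside, so the windows are promoters of the RefSeq models only.
Cd209f promoter: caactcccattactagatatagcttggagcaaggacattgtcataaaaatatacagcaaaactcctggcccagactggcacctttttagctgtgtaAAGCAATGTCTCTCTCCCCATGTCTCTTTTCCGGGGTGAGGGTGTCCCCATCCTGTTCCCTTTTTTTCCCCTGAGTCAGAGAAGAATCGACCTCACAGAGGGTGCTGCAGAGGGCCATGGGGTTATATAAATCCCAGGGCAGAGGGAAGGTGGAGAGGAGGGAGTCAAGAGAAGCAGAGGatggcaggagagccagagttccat
Cd209g promoter: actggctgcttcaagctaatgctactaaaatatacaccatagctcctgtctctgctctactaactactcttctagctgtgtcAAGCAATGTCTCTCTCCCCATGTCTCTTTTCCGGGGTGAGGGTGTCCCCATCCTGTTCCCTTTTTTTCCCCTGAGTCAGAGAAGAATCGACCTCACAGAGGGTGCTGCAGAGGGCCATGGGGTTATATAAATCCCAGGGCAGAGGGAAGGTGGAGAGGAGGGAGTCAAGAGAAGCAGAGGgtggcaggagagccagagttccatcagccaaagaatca
In the register of that run 238 of 286 bases were identical (83.2%). Both genes had UMIs in 23 of the 58 BAM of library 1, Cd209f alone in 10, Cd209g alone in 2 and neither in 23. Among the 1205 other cells of library 1, 4 had both. The longest identical run between their GENCODE transcripts was 416 bases, and 29 bases within the last 300, where 3′ reads mostly fall. How the counting divided reads between them is not given in the sources used here, so the level of each is uncertain.

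The share of cells that met the rule was 4.59% (3.51 to 5.9) in library 1, 58 of 1263 cells. In library 3 it was 1.05% (0.217 to 3.03), 3 of 286 cells. In library 2 it was 0 of 595 cells, which allows a share of up to 0.504% as 3 counts of 595 (0.618% as the upper Clopper-Pearson bound). Leaving out library 1 lowered the share over all cells from 2.85% to 0.341%. The 3 libraries held 6410990, 4022293 and 2831118 UMIs and shared no barcodes, and median depth per kept cell was 3662, 6216 and 8180 UMIs. The cells that met the rule were deeper than the others of their library, with a median of 7827 against 3560 UMIs in library 1 and 16080 against 8114 UMIs in library 3. The part of depth in the results was not tested, except that shares were also computed after each cell was thinned to 2000 UMIs.

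**Figure D1:**
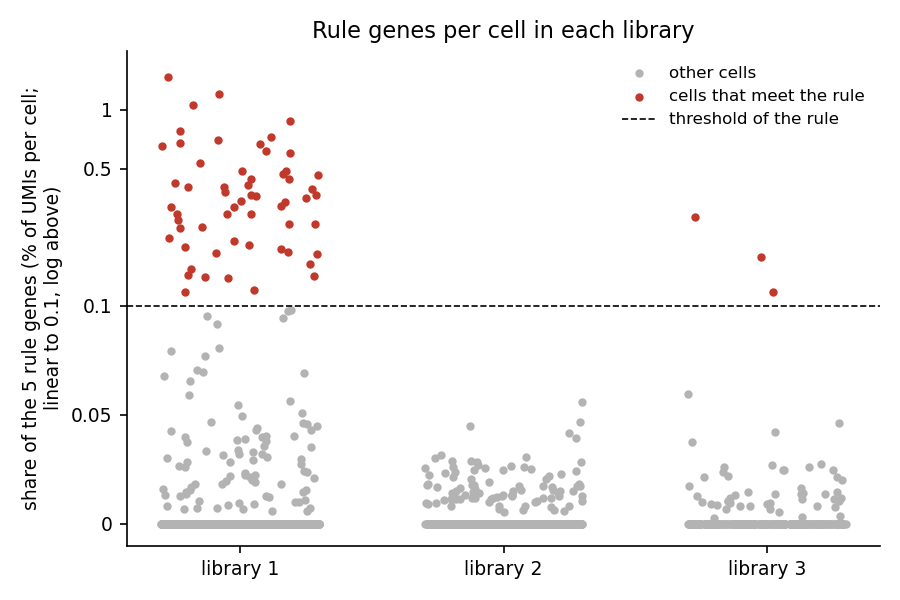
Each point is 1 cell, placed by library (x axis) and by the percentage of its UMIs that came from the 5 rule genes (y axis, linear up to 0.1 and logarithmic above). Red cells met the rule, grey cells did not, and the dashed line is the threshold of 0.1%. Library 1 holds 58 red cells, library 3 holds 3, and no cell of library 2 is above 0.0557%.

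As a description of the choice, the rule genes made up 0.118% to 1.47% of the UMIs of the BAM of library 1, with a median of 0.35%. All 5 genes were detected in 23 of these 58 cells, 4 in 17, 3 in 9, 2 in 5 and 1 in 4. The cells nearest the threshold on the inside were at 0.118% (1 in library 1, 1 in library 3), 0.12% and 0.138%, and the nearest on the outside at 0.098%, 0.0979%, 0.0955% and 0.0943%, all 4 in library 1. Of the 1205 other cells of library 1, 1114 had no UMI of any rule gene and 17 lay between 0.05% and 0.1%.

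In library 1 the UMIs of the rule genes lay mostly in BAM, which the rule makes likely, and in library 2 those of Mrc1 and Cd163 lay mostly in another range of cells. Pf4, the platelet factor 4 chemokine (chromosome 5, 90772435 to 90773383), had 1149 of its 1286 UMIs of library 1 in BAM, and it was detected in all 58 of them. Library 2 had 3 Pf4 UMIs, 3 of Cbr2, a carbonyl reductase, and 0 of Cd209f in its 595 cells. It did have 130 UMIs of Mrc1, and 100 of these lay in cells with Cd209a UMIs and at least 1% MHC class II (the dendritic range). The 5 cells of library 2 with the highest rule share had 3 to 5 Mrc1 UMIs, no Pf4, Cbr2, Cd163 or Cd209f UMI, and 18 to 39 UMIs of Cd209a, a lectin of monocyte-derived dendritic cells. Cd163 had 17 of its 20 UMIs of library 2 in the same dendritic range.

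The remaining results on BAM refer to the 58 cells of library 1 and their 568216 UMIs, set against the 1205 other cells of that library. Levels are CPM, the UMIs of a gene summed over a set of cells and scaled to a total of 1000000, and a gene was called at a 2-fold difference among the 7932 genes with at least 50 UMIs in the library. Of these, 326 (4.11%) were at least 2-fold higher in BAM and 418 (5.27%) at least 2-fold lower. A gene that other cells nearly lack can reach 50 UMIs only through BAM, so counts over a list describe the genes that passed and no more.

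Markers of BAM outside the rule were present in these cells. Of 26 further BAM genes 21 passed the minimum, and 18 of them were at least 2-fold higher in BAM, with 0 lower and a median log2 ratio of 3.09 against 0.00 over all genes. Several of the 21, such as Lyve1, Folr2 and Cd38, passed only through BAM. Ms4a7, a membrane protein of BAM (chromosome 19, 11321039 to 11336146), stood at 503 CPM (447 to 565) in BAM and 28.4 CPM (24.3 to 33.1) in other cells, a ratio of 17.7 (14.6 to 21.6). It had UMIs in 54 of 58 BAM, with a median of 474 CPM and a highest value of 3872 CPM per cell. After thinning, 55.2% of BAM had an Ms4a7 UMI (41.5 to 68.3), against 1.68% of other cells (1.01 to 2.6) and 0 of 22 neutrophil-rich or NK-rich cells, which should lack it (up to 13.6% allowed). Unthinned, these shares were 93.1%, 3.15% and 0%. Ccl24 (chromosome 5, 135569937 to 135573049), an eosinophil-attracting chemokine and the other marker of the label outside the rule, stood at 371 CPM (323 to 425) against 15.4 CPM. It was less even: 22 of 58 BAM had no Ccl24 UMI, and 1 cell held 41 of its 211 UMIs.

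Other members of the list covered adhesion, endocytosis and matrix. Lyve1, a hyaluronan receptor (chromosome 7, 110850607 to 110863239), had 91 UMIs in BAM and 7 in the other 1205 cells. Folr2, a folate receptor (chromosome 7, 101839988 to 101857194), had 127 and 15 UMIs. F13a1, the A chain of coagulation factor XIII, stood at 433 CPM (381 to 491) against 12 CPM (9.34 to 15.1). Dab2, an endocytic adaptor, stood at 619 CPM against 28.8 CPM, a ratio of 21.5 (17.9 to 26). The NAD-consuming surface enzyme Cd38 had 66 UMIs in BAM and 12 in the other cells. Ltc4s, a leukotriene synthase, and Hpgd, a prostaglandin dehydrogenase, which are also on the list, were near equal in both, at 813 against 772 CPM and 493 against 463 CPM. Lilra5 was 1.57-fold higher (1.01 to 2.36). Siglec1, Fcna, Colec12 and Ednrb had under 50 UMIs in the library and Vsig4 had none.

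**Figure D2:**
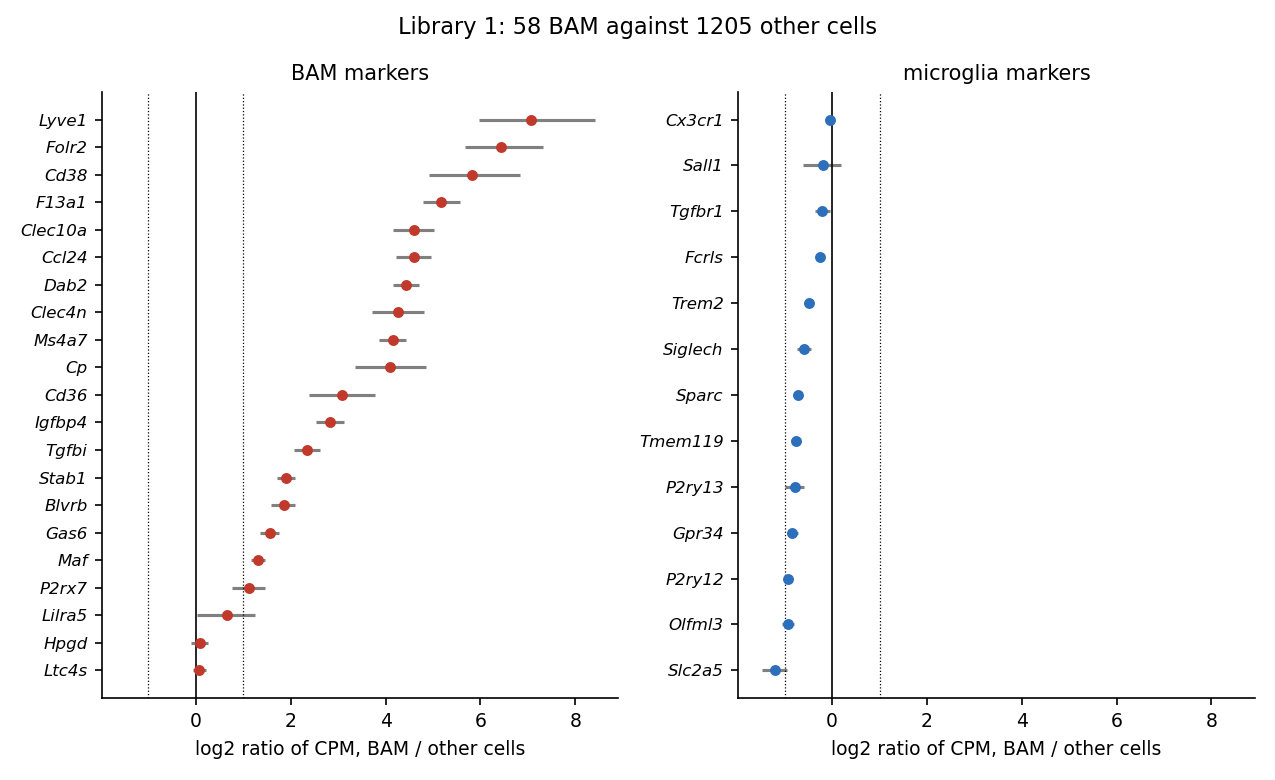
Points are log2 ratios of CPM (x axis) in 58 BAM over 1205 other cells of library 1 for the BAM genes outside the rule (left, red) and 13 of the 14 microglia genes (right, blue) with at least 50 UMIs, and bars are 95% counting intervals. Dotted lines mark 2-fold. BAM genes run from 0.07 for Ltc4s to 7.06 for Lyve1, and microglia genes from -1.21 for Slc2a5 to -0.04 for Cx3cr1.

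Scavenger and lectin receptors formed the next group. Of 19 such genes, which share 6 with the BAM list, 15 passed the minimum and 11 were at least 2-fold higher in BAM, with 0 lower and a median log2 ratio of 1.90. Cd209g had 127 UMIs in BAM and 7 in the other cells, a ratio of 187 (88 to 473). Cd209b, on the same chromosome (chromosome 8, 3917655 to 3926844), stood at 120 CPM against 2.74 CPM. The macrophage scavenger receptor Msr1 stood at 63.4 CPM (44.4 to 87.7) against 2.91 CPM, and the fatty acid receptor Cd36 at 59.8 CPM against 7.02 CPM. Stab1, a receptor for modified lipoproteins that microglia also express, was 3.73-fold higher (3.29 to 4.23). Mertk, which binds dying cells, and Lrp1, an apolipoprotein receptor, were near equal, at 169 against 168 CPM and 162 against 187 CPM. In the 16 BAM with under 0.3% microglia genes, described below, both were at least 2-fold lower than in other cells. Of the 10 genes of this list that passed in that set, 6 were at least 2-fold higher and these 2 lower. Timd4, which binds phosphatidylserine, had a level of 51 CPM in BAM and 0.856 CPM in other cells but under 50 UMIs in all, and Marco had none.

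Chemokines differed in both directions. Of 15 genes 13 passed, 7 were at least 2-fold higher in BAM and 2 at least 2-fold lower. Ccl2, Ccl7, Ccl12 and Ccl8, ligands that attract monocytes, lie in this order within chromosome 11, 82035571 to 82116799. Ccl7 stood at 873 CPM (798 to 953) in BAM and 17.5 CPM (14.2 to 21.2) in other cells, and Ccl8 at 209 CPM (173 to 251) and 1.03 CPM (0.377 to 2.24). Ccl2 stood at 883 CPM against 128 CPM, and Ccl12 at 604 CPM against 232 CPM.

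These chemokine UMIs were unevenly spread over BAM. Ccl7 was at 0 in 30 of 58 cells, and 1 cell held 157 of its 496 UMIs. The same cell held 158 of the 502 Ccl2 UMIs and the most Ccl24 UMIs. Without it the ratio for Ccl7 was 35 (27.9 to 44.1) in place of 50, and that for Ccl2 was 4.86 (4.26 to 5.53) in place of 6.93. Ccl8 was at 0 in 36 of 58 cells, and 3 cells held 69 of its 119 UMIs. After thinning, 25.9% of BAM had a Ccl7 UMI (15.3 to 39) against 1.76% of other cells, and 0 of 22 neutrophil-rich or NK-rich cells had one. Unthinned, the shares of BAM and other cells were 48.3% and 2.82%. The inflammatory chemokines Ccl3 and Ccl4, which activated microglia make, were lower in BAM, at 1350 against 1806 CPM and at 1455 against 3003 CPM. For Ccl3 this did not hold in the 16 BAM with under 0.3% microglia genes, described below. There its log2 ratio to other cells was at or above the list median of 0.15, while Ccl4 was at least 2-fold lower. Ccl5, which NK cells make, had 2 UMIs in BAM and 995 in other cells, a ratio of 0.0207 (0.0025 to 0.0749).

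**Figure D3:**
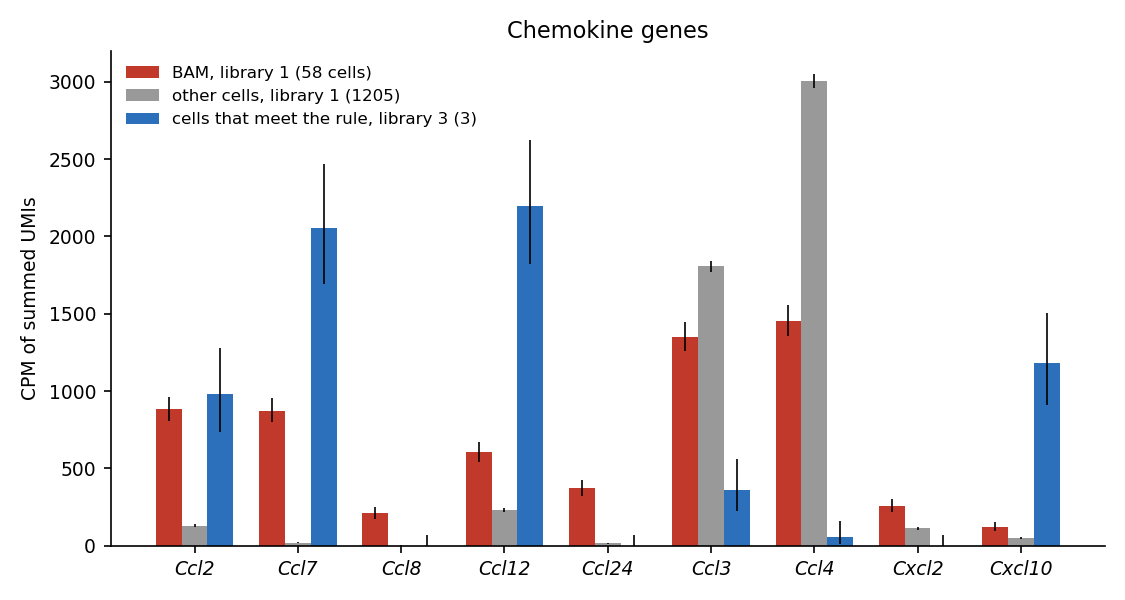
Bars give CPM of summed UMIs (y axis) for 9 chemokine genes in the 58 BAM of library 1 (red), the 1205 other cells of library 1 (grey) and the 3 cells of library 3 that met the rule (blue), with 95% Poisson intervals. Ccl7 and Ccl8 are higher in red than in grey and Ccl3 and Ccl4 lower, and Ccl8, Ccl24 and Cxcl2 are at 0 in the 3 cells of library 3.

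Apoe, the lipid carrier of brain and plasma (chromosome 7, 19696109 to 19699188), differed in level and in evenness. It stood at 28929 CPM (28489 to 29375) in BAM and 2489 CPM (2448 to 2530) in other cells, an 11.6-fold difference. Over the 58 BAM it ranged from 4216 to 104160 CPM per cell with a median of 31711 CPM, and no BAM was without it. The 4 BAM without an Ms4a7 UMI had 15, 24, 15 and 19 Apoe UMIs and 5, 6, 5 and 8 of Pf4. They had no Mrc1, Lyve1 or Folr2 UMI, and are named BAM by the rule only. Over other cells the median of Apoe was 135 CPM and the highest value 114704 CPM, so the ranges of BAM and other cells overlapped. All 58 BAM had an Apoe UMI after thinning, against 37.3% of other cells (34.5 to 40.2). Among 22 neutrophil-rich or NK-rich cells it was 31.8% (13.9 to 54.9), and 40.9% of these had a P2ry12 UMI. The source of Apoe UMIs in other cells was not tested.

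Of the 15 growth factors and cytokines, 12 passed and 5 were at least 2-fold higher, with a median log2 ratio of 0.19. Besides Apoe these were Igf1, a growth factor (98.6 CPM against 5.48), the matrix protein Tgfbi (287 against 56.3), Gas6, a ligand of Mertk and Axl (475 against 161), and Hbegf, an epidermal growth factor receptor ligand (38.7 against 11.6). Tnf and Il18 had ratios whose intervals held 1, and Il1b was lower, at 178 CPM against 308 CPM. The direction for Il1b depended on the reference. Against the microglia range of library 1 (defined below) its log2 ratio was at or above the list median of 0.38, so it was not lower there.

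Interferon-stimulated genes were higher as a group in these cells. Of 14, 11 passed, 8 were at least 2-fold higher and 0 lower, with a median log2 ratio of 1.37. Bst2, which tethers virus particles, stood at 549 CPM against 183 CPM, a ratio of 3 (2.63 to 3.4), and had UMIs in 55 of 58 BAM. Ifitm3, which blocks virus entry, stood at 583 CPM against 243 CPM, and Ifi27l2a at 329 CPM against 117 CPM. Isg15, an ubiquitin-like modifier, had a ratio of 1.55 (0.987 to 2.36).

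Iron genes were mostly higher in BAM by less than 2-fold. Of 12 iron and heme genes 11 passed. The intervals of 9 lay above 1 and of 0 below, against 755 above and 658 below among all 7932 genes. The median log2 ratio was 0.65, and 3 genes were at least 2-fold higher and 0 lower. The 3 were Cp, the copper ferroxidase ceruloplasmin (75.7 CPM against 4.45), Blvrb, a biliverdin reductase (320 against 89), and Hmox1, which opens the heme ring (280 against 98.8). Cp and Blvrb are also among the BAM genes. Of 12 complement genes 10 passed, 2 were at least 2-fold higher and 0 lower, with a median log2 ratio of 0.09. C4b had 41 UMIs in BAM and 14 in other cells, and the properdin gene Cfp stood at 75.7 CPM against 24.6 CPM. C1qa and C1qc, chains of the first complement component, were near equal, at 8828 against 9877 CPM and 8377 against 8279 CPM.

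Of 16 transcription factors 14 passed, 2 were at least 2-fold higher and 0 lower, with a median log2 ratio of -0.07. Maf, which macrophages of many tissues use, stood at 797 CPM against 322 CPM, and Klf4, a zinc finger factor, at 151 CPM against 50 CPM. Of the 6 Csf receptors and ligands, 5 passed and none was 2-fold different. Csf1r, the target of PLX5622, stood at 2049 CPM in BAM and 2409 CPM in other cells, a ratio of 0.85 (0.8 to 0.903), and was detected in 57 of 58 BAM. Of 17 immediate early and stress genes all passed and 3 were at least 2-fold higher, Fosb, Klf2 and Hspa1a, with a median log2 ratio of 0.47.

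Outside the lists, the gene with the highest ratio was Gpx3, a secreted glutathione peroxidase, at 98.6 CPM against 3.08 CPM, a ratio of 32 (18.5 to 57.8). Egfl7, a secreted vessel protein, was 21.4-fold higher (13 to 36), Tslp, an epithelial-type cytokine, 18.1-fold (10.8 to 30.9), and Pla2g7, a lipoprotein-bound phospholipase, 15.3-fold (10.9 to 21.4). The other genes of the highest 15 were Ptgds, Adam33, Arhgap19, Fam43a, Itsn1, Gm4951, Cyr61, Myo5a, Serpinb6a, Ifi203 and AI607873, with log2 ratios from 2.91 to 4.31. Ptgds, a prostaglandin D synthase, had a log2 ratio of 4.31 that moved with few cells. It was 2.65 at a rule threshold of 0.2% and 6.21 at a limit of 5% mitochondrial UMIs. Among the lowest were Lcn2, Npy and Tnip3, each with 1 UMI in BAM and between 295 and 395 UMIs in other cells. Of these only Tnip3 was also among the 8 lowest against the microglia range of library 1 (defined below), with 77 UMIs there. The low ranks of Lcn2 and Npy rested on other cells outside that range. Retnla had none in BAM and 480 in other cells, 15.6-fold lower with BAM set at 3 counts (interval of the ratio 0 to 0.0793).

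Microglia genes were present in most BAM. Of 14 such genes all passed, 0 were at least 2-fold higher and 1 at least 2-fold lower, with a median log2 ratio of -0.75. The purinergic receptor P2ry12 stood at 2265 CPM against 4350 CPM, a ratio of 0.521 (0.492 to 0.551), and the membrane protein Tmem119 at 1607 CPM against 2728 CPM. The fractalkine receptor Cx3cr1 was near equal, at 2177 against 2234 CPM. P2ry12 was at 0 in 5 of 58 BAM, and its values per cell ran from 0 to 5440 CPM with a median of 2031 CPM, within the range of other cells.

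The summed share of 6 microglia genes (P2ry12, Tmem119, Siglech, Sall1, Gpr34 and P2ry13) divided BAM of library 1 unevenly. It ranged from 0% to 2.26% of UMIs, with a median of 0.527%, against a median of 1.31% in the microglia range of the same library (at least 0.3%, outside the rule, 1109 cells). It was at least 0.3% in 42 of 58 BAM (72.4%, 59.1 to 83.3), and 16 BAM lay below. In the 4 BAM without an Ms4a7 UMI the share was 0%, 1.126%, 2.264% and 0.976%. Median depth was 9484 UMIs in the 42 and 4276 UMIs in the 16. In the 24 neutrophil-rich or NK-rich cells of library 1 the median share was 0.0261% and the highest 0.982%. Scrublet marked none of the 58 BAM as doublets, and 2 of all 1263 cells of the library, a low yield. Whether cells of 2 kinds in 1 droplet, free RNA or expression by BAM gave these UMIs was not tested.

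**Figure D4:**
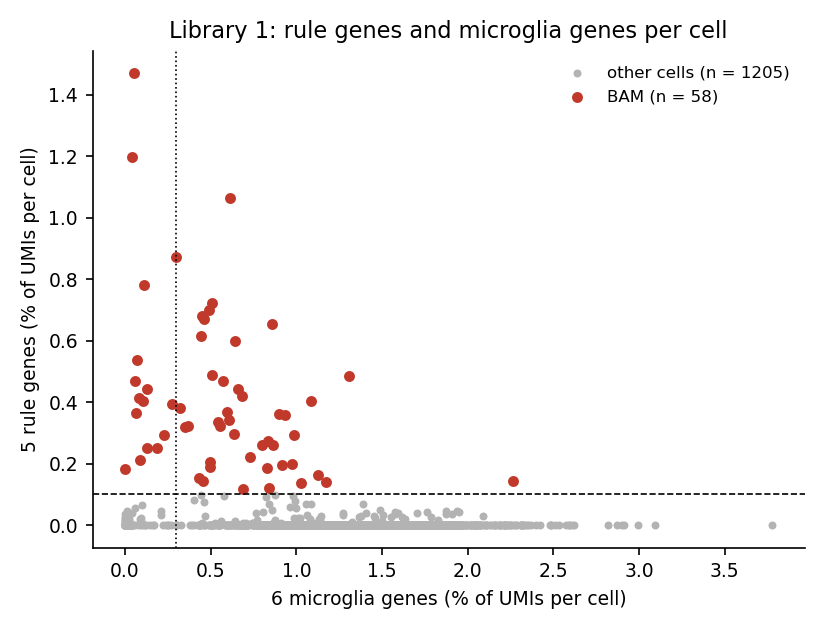
Each point is a cell of library 1, placed by the percentage of its UMIs from 6 microglia genes (x axis) and from the 5 rule genes (y axis), with BAM in red and other cells in grey. The dashed line is the rule threshold of 0.1% and the dotted line marks 0.3% microglia genes. Of the 58 red points 16 lie left of the dotted line and 42 lie right of it.

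BAM markers were also high in the 16 BAM with few microglia UMIs. With this small sum, whose median log2 ratio over all genes was 0.17, 21.6% of 7705 genes were at least 2-fold higher than in other cells and 11.7% at least 2-fold lower. Of the BAM genes outside the rule 16 passed the minimum and 14 were at least 2-fold higher. Of the 14 microglia genes 13 were at least 2-fold lower, which the choice of the 16 by 6 of these genes makes likely. Ms4a7 stood at 956 CPM in the 16 and 426 CPM in the 42, and Apoe at 54731 and 24540 CPM. Ccl7 stood at 1901 and 698 CPM, but 1 cell held 68 of the 157 UMIs of the 16 and 1 cell 157 of the 339 UMIs of the 42, and without these cells it stood at 1142 and 385 CPM. Csf1r, at 1162 and 2199 CPM, was at least 2-fold lower in the 16 than in other cells, and of the 5 Csf genes 3 were at least 2-fold lower and 1 higher in this set. Thinned, an Ms4a7 UMI was found in 15 of 16 (93.8%) and in 17 of 42 (40.5%), and unthinned in 93.8% and 92.9%.

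Set against the microglia range of library 1, 302 of 7643 genes (3.95%) were at least 2-fold higher in BAM and 357 (4.67%) at least 2-fold lower. Ptn, a secreted growth factor outside the lists, was 46.5-fold higher (22.4 to 108). The 5 Csf genes that passed were within 2-fold. The 8 interferon genes that passed were all at least 2-fold higher than in that range, Ifitm3 by 7.85-fold (6.76 to 9.11). MHC class II depended on the reference. Against all other cells 0 of 6 genes were 2-fold different, and against the microglia range 4 of 6 were at least 2-fold higher, Cd74 by 2.9-fold (2.76 to 3.04). The other cells of library 1 include 25 cells of the dendritic range, whose median MHC class II share was 8.66%.

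MHC class II presents antigen to T cells, and its genes H2-Aa, H2-Ab1, H2-Eb1 and Cd74 were unevenly spread over BAM. Their summed share ran from 0% to 5.95% of UMIs with a median of 0.0265%. It was at least 1% in 12 of 58 BAM (20.7%, 11.2 to 33.4), under 0.1% in 39, and in between in 7. The bounds of 1% and 0.1% are ranges and not types. Cd74 was at 0 in 22 BAM, and 3 cells held 913 of its 2324 UMIs.

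Lyve1 and Folr2 UMIs were found in every range of MHC class II. At least 1 UMI of either was found in 35 of 58 BAM (60.3%, 46.6 to 73), in 5 of the 12 with at least 1% MHC class II (41.7%, 15.2 to 72.3) and in 26 of the 39 under 0.1% (66.7%, 49.8 to 80.9), and these intervals overlapped. Spearman's rho between the 2 shares over the 58 cells was 0.00. Between microglia genes and MHC class II it was -0.38. These cells share a library, and the values describe them only.

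**Figure D5:**
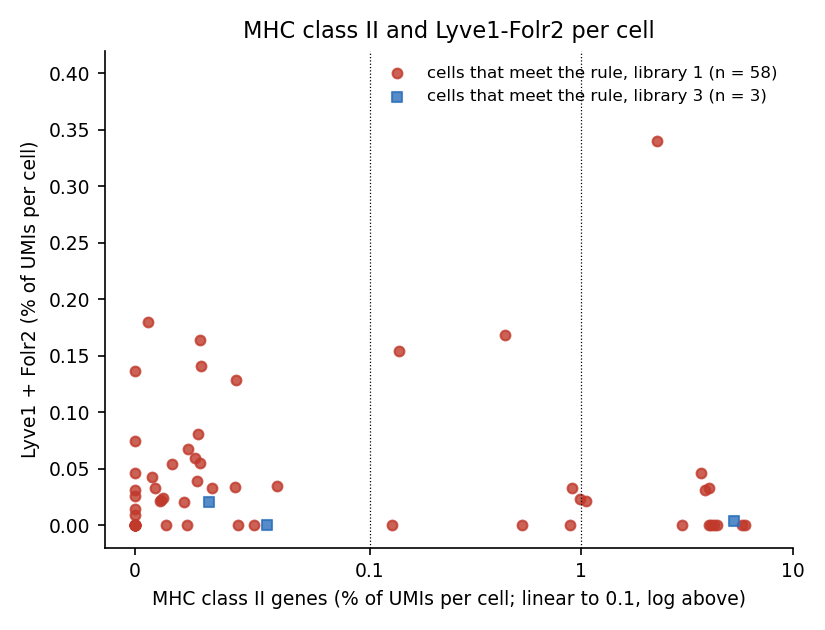
Each point is a cell that met the rule, placed by its percentage of UMIs from 4 MHC class II genes (x axis, linear up to 0.1 and logarithmic above) and from Lyve1 and Folr2 (y axis), with library 1 as circles and library 3 as squares. Dotted lines mark 0.1% and 1%. Cells of library 1 with and without Lyve1 or Folr2 UMIs lie in every range of MHC class II, 35 of 58 having them.

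The 12 BAM with at least 1% MHC class II were also set against the 39 under 0.1%. Of 1350 genes with at least 50 UMIs in these cells, 18 (1.33%) were at least 2-fold higher in the 12 and 139 (10.3%) at least 2-fold lower, with a median log2 ratio over all genes of -0.19. Genes that did not choose the split and were higher included H2-DMa and H2-DMb1, which load MHC class II (839 against 241 CPM and 674 against 228 CPM), Lyz2, lysozyme (15109 against 5254 CPM), Cd52, a small surface glycoprotein (860 against 218 CPM), and the lectin Mgl2 (466 against 189 CPM). Of the dendritic markers 2 passed, Mgl2, at least 2-fold higher in the 12, and Cd209a, at least 2-fold lower. Ccl8 stood at 20.7 CPM (2 UMIs) against 187 CPM, the iron exporter Slc40a1 at 20.7 CPM against 182 CPM, Folr2 at 82.9 CPM against 254 CPM and Stab1 at 249 CPM against 699 CPM. Single cells carried other values. All 8 Cd209g UMIs of the 12 lay in 1 cell, against 98 UMIs in 20 of the 39. Lyve1 stood at 187 CPM against 161 CPM, but 1 cell held 16 of its 18 UMIs in the 12 and 9 of the 12 had none. Without the cell with most Lyve1 UMIs on each side the levels were 21.8 and 132 CPM. Of the 18 BAM genes outside the rule that passed, 8 were at least 2-fold lower in the 12 and 0 higher, and of 13 microglia genes 5 were at least 2-fold lower. P2ry12 stood at 1285 CPM against 2520 CPM, so the MHC class II ranges also differed in microglia genes, and the part of those in the other differences was not tested.

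Markers of other cell types were counted in BAM of library 1. Of the 8 dendritic genes 4 had UMIs, with a summed level of 514 CPM against 189 CPM in other cells. Nearly all came from Cd209a (253 CPM) and Mgl2 (255 CPM), while Flt3, Ccr7, Xcr1 and Itgae were at 0. Monocyte genes summed to 106 CPM against 265 CPM, with Vcan at 0. Neutrophil genes summed to 26.4 CPM against 2727 CPM, a level the rule limits, and NK genes had 2 UMIs in all. Of 8 endothelial genes 3 had UMIs, with a summed level of 127 CPM against 88.3 CPM, and Cldn5, Flt1, Ly6c1, Slco1a4 and Itm2a were at 0. Of the 5 endothelial genes that passed the minimum, only Pltp was at least 2-fold higher in BAM and the other 4 were at least 2-fold lower. Of 6 fibroblast genes 3 had 5 UMIs in all, 8.8 CPM against 0.171 CPM in other cells, of 4 choroid epithelial genes 1 had 1 UMI, and the 5 red cell genes were at 0. The part of these cell types in the results was not tested.

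Few BAM of library 1 were cycling. At least 3 of 20 proliferation genes had UMIs in 1 of 58 cells after thinning (1.72%, 0.0436 to 9.24) and in 6 of 58 before, and Mki67 and Top2a were at 0 in all 58. Among other cells of library 1 the thinned share was 0.176% (0.0214 to 0.636), an interval that overlaps that of BAM. Unthinned, the shares were 10.3% and 1.41%.

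The 3 cells of library 3 that met the rule differed from the label in part, and are named here by the rule. They had 16080, 9557 and 29417 UMIs, with 15, 19 and 37 UMIs of Pf4, 12, 27 and 3 of Ms4a7, and 20, 63 and 30 of Ccl7. Dab2 stood at 945 CPM (705 to 1239), against 76 CPM in the other 283 cells of that library. Cd209f, Ccl24, Lyve1 and Cd209g had 0 UMIs in all 3, which allows up to 54.5 CPM each in their summed UMIs. The summed levels in BAM of library 1 were 649, 371, 160 and 224 CPM. However, 25, 22, 36 and 33 of the 58 BAM of library 1 also had no UMI of these genes, so 3 cells cannot show a difference between the libraries. P2ry12 and Tmem119 were at 0 in the 3 cells too. Csf1r had 2, 1 and 1 UMIs (72.7 CPM, 19.8 to 186), against 279 CPM in the other cells of library 3 and 2049 CPM in BAM of library 1.

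Genes of monocytes and of the cell cycle were present in these 3 cells. S100a4, a calcium-binding protein on the monocyte list, had 37, 17 and 22 UMIs, and Ccr2, also on that list, had 12, 0 and 2. S100a4 stood at 1380 CPM (1088 to 1728) against 12.3 CPM in BAM of library 1 and 856 CPM in the other cells of library 3. The galectin Lgals3 stood at 1544 CPM, close to the 1470 CPM of those other cells. The monocyte list summed to 2488 CPM, with 6 of 8 genes detected and F10 and Vcan at 0, against 4041 CPM in the other cells of library 3. The topoisomerase Top2a had 3, 0 and 12 UMIs, and 2 of the 3 cells had at least 3 proliferation genes both thinned and unthinned (66.7%, 9.43 to 99.2), against 22.9% of the other cells of library 3 thinned and 37.5% unthinned. Cd74 was split, with 6, 1 and 707 UMIs. Apoe had 0, 74 and 107 UMIs. In other cells of library 3, choroid epithelial genes reached 33% of the UMIs of 1 cell and had 3 UMIs in the 3 cells. With 3 cells, 1 of which held 37 of the 71 Pf4 UMIs and 707 of the 714 Cd74 UMIs, these values describe single cells.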

How the data were processed

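Single cells were sequenced with 10x Genomics 3′ v2 reagents, per the labels. The deposited values are raw UMI counts, which the authors gave as 1 matrix pooling all libraries. The submitters' processing notes name Cell Ranger 2.0.1 and the build mm10. The annotation and the cell-calling filter are not given in the sources used here. The labels' protocol mentions more prepared samples than the 3 described here. Gene IDs of the 18 genes with positions matched GENCODE M21 (GRCm38).

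The filters of the rule removed 5 of 2149 cells. Counts were summed over cells and scaled to CPM with exact Poisson intervals. Ratios have exact conditional binomial intervals, shares have Clopper-Pearson intervals, a sum of 0 was set at 3 counts for a ratio, and all cover counting error only. The ratio script was tested on simulated data. Genes with at least 50 UMIs in a library were called at 2-fold, leaving out the 5 rule and 4 neutrophil genes. Cells were thinned to 2000 UMIs to compare shares. Doublets were called with Scrublet (scanpy 1.11.5, expected rate 5%) and kept. The neutrophil-rich or NK-rich cells (neutrophil genes at least 1%, or Ncr1, Klrb1c, Gzma and Nkg7 at least 0.3%), the MHC class II and the microglia comparisons within BAM were chosen after the data were seen.

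The members and the 30 gene lists were chosen with earlier results of these data known. The plan was to name the 2 to 6 genes of each list widest in level or ratio. For the BAM and chemokine lists more were named, some of them near equal, and not all of the widest are discussed. The other genes named are the markers and the extremes outside the lists. Those extremes were to be ranked in libraries 1 and 2. With no BAM in library 2 they were ranked in library 1, and the rankings between libraries and against the monocyte range (13 cells in library 1) were not run. Of 287 genes on the lists, 5 (Clec7a, Ighm, Iglc2, Trac and Trbc2) were not analysed here. Alternatives were other rule thresholds, cell and gene filters, doublets removed, per-cell means, other references and each library left out. Some genes of the lists are counted but not reported here by name.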

Additional observations from a re-analysis of the deposited data

How the results depend on the processing

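No paired analysis was possible because each group has 1 sample and no test was made. Of 78 alternative values for the shares and counts, 61 stayed within the counting interval (or 1.5 times the count) of the main value and 17 moved. At a rule threshold of 0.05% the share was 5.94% in library 1 and 3.73% over all cells, and at 0.2% it was 2.15% over all cells. Thinned before the rule, it was 3.78% over all cells, with 3 cells in library 2 and 6 (2.13%) in library 3. At 0.2%, 1 cell (0.35%) of library 3 was left. Over all cells it was 0.341% without library 1 and 3.94% without library 2. Without members rich in microglia genes, cells that met the rule made up 1.27% of library 1 (16 cells) and 0.886% of all cells (19, which include the 3 of library 3). In this smaller set, the 16 cells of library 1 had 1662 genes (21.6% of 7705) higher and 903 (11.7%) lower. Of the 16, 37.5% had at least 1% MHC class II and 0% were cycling (0 of 16). With a minimum of 20 UMIs per gene, 610 genes were higher and 655 lower, and with 100 UMIs 157 were higher and 210 lower, since fewer genes were tested. With means of per-cell CPM 709 of the 7932 genes were lower, and the cause was not tested. For 30 named genes, all 8 alternatives of each log2 ratio kept its direction, and 57 of 240 values left the counting interval. With means of per-cell CPM, Ms4a7 moved from 4.15 to 5.28, Lyve1 from 7.06 to 8.75 and Ccl7 from 5.64 to 6.73. Leaving out the cell with most UMIs of a gene was added after seeing the data. With 1 library a group and 3 cells in library 3, spread between animals is unknown.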
